A study of Mus musculus with 33 samples.

Results

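Interleukin 12 (IL-12), interleukin 23 (IL-23) and interleukin 27 (IL-27) are secreted as pairs of chains, and the 4 genes described here, Ebi3, Il27, Il12a and Il23a, each encode 1 chain of such a pair. They were taken as the probes annotated to these symbols on arrays of macrophages grown from bone marrow (BMDM) and of mouse embryonic fibroblasts (MEF), and they were chosen by the levels of Ebi3 and Il27, lower and higher in p50KO than in WT macrophages. That contrast is therefore described below and not tested. The 4 genes had 5 probes among 25697 probes and 16593 named genes on the BMDM arrays, and 4 probes among 24613 probes and 15967 named genes on the MEF arrays. All 4 genes passed the filter on dim probes in BMDM, with 9161 genes in all, and 2 of them, Ebi3 and Il27, passed it in MEF, with 9109 genes in all.

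RNA was measured on 33 Illumina bead arrays, on which biotin-labelled cRNA is captured by beads and each probe gives a brightness. The 23 BMDM arrays held 10 of p50KO cells, which lack the NF-kB subunit p50, 2 of IFNARKO cells, which lack a receptor chain for type I interferon, and 11 of wild type (WT) cells; the 10 MEF arrays held 4 of p50KO and 6 of WT cells. The labels give C57BL/6 as the strain of every sample, and give neither the allele of either knockout nor an age, sex or dose. p50KO and WT BMDM were left unstimulated or given CpG DNA, lipopolysaccharide (LPS) or IFNb (interferon beta) for 1, 3 or 8 h, IFNARKO BMDM were left unstimulated or given LPS for 3 h, p50KO and WT MEF were left unstimulated or given LPS for 1, 3 or 8 h, and WT MEF were also given IFNb for 8 h. Each such group was 1 array, apart from 2 arrays of unstimulated WT cells in each cell type: in BMDM one is titled with the CpG arrays and the other with the LPS arrays, while the 1 unstimulated p50KO array is titled with the CpG arrays. Nothing in the labels says that arrays came from separate animals or cultures, so the spread behind each p-value is that between these arrays alone. In the fits over both genotypes, only unstimulated WT cells had 2 arrays. Most of that spread is therefore how far p50KO minus WT differed between conditions. It mixes technical scatter with unlike responses of the genotypes, and is not a spread between replicates.

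Ebi3 encodes the chain that IL-27 is built on together with the product of Il27. Il12a encodes a chain of IL-12 and Il23a a chain of IL-23, and in these cytokines each pairs with the product of Il12b, which was not analysed here. Macrophages and dendritic cells make these cytokines after sensing microbes: IL-12 drives interferon gamma production by T and natural killer cells, IL-23 sustains T cells that make IL-17, and IL-27 acts through Il27ra and Il6st and can restrain inflammation. NF-kB dimers that hold RelA or c-Rel activate several of these genes. The p50 subunit has no activation domain of its own, is found in dimers with RelA or c-Rel, and as a homodimer can repress.

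Because p50 binds DNA at NF-kB sites, the promoter windows of the members were searched for the NF-kB consensus, named here without its letters, on both strands, and for the core of the interferon-stimulated response element, spelled GAAA, then any 2 bases, then GAAA, on both strands. The RefSeq promoter table of build GRCm38.p6, which holds 250 bases before and 50 bases after each annotated start, matched 2 of the 4 genes, Ebi3 with 1 start and Il12a with 2 starts. The Ebi3 window lies on the plus strand at chr17:55952373-55952672 and is printed 5′ to 3′ with its 1 match to the NF-kB consensus in capitals.
Ebi3: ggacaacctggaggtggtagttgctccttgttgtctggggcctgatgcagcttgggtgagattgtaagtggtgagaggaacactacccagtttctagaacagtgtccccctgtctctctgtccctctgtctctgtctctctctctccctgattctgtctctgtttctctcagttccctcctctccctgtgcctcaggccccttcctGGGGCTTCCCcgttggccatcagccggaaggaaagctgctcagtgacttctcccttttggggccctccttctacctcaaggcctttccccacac
The match runs from position -44 to -35 relative to the start. Neither Il12a window, on chromosome 3, held a match to either motif. Over all 32851 promoter windows of the table, 4.51% held the NF-kB consensus and 3.44% the interferon-response core. A match describes letters in a window and shows no binding. Il27 and Il23a had no window in the table.

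A level below is the log2 of the background-corrected, quantile-normalized brightness, and a probe counts as above background on an array where the deposited detection p-value is under 0.01. The lowest level of any probe above background was 4.89 to 5.37 on the BMDM arrays and 5.02 to 6.36 on the MEF arrays, so levels near 5 carry no order. Levels are compared within a probe only. BMDM arrays had 10456 to 12273 probes above background (40.7% to 47.8%). All 6 macrophage markers with a probe were above background in BMDM, and 1 of 8 fibroblast markers was. Of 8 dendritic cell markers 5 were above background, H2-Ab1 and Cd74 on 23 of 23 arrays, Batf3 on 19, Ciita on 7 and Ccr7 on 5, while Flt3, Zbtb46 and Itgax were above background on 0. All 5 granulocyte markers with a probe were above background, S100a8, S100a9 and Mpo on 23 of 23 arrays, Elane on 20 and Camp on 15, and their summed intensity-scale level was 1730 to 11300 on p50KO, 4860 to 11800 on IFNARKO and 992 to 14400 on WT arrays. Whether such cells were present, and their part in the values below, was not tested. In whole-culture RNA, fewer cells of a type and less RNA per cell cannot be told apart.

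A pair of p50KO arrays stood apart from their labelled times. The p50KO array labelled LPS 1 h differed from the WT LPS 3 h array by a root mean square of 0.54 log2 over 12 immediate-early genes, and from the WT LPS 1 h array by 2.39. Over all genes its correlation was 0.989 with the WT LPS 3 h array and 0.951 with the WT LPS 1 h array. The p50KO array labelled LPS 3 h correlated at 0.983 with the WT LPS 8 h array and at 0.95 with the WT LPS 3 h array, although its immediate-early genes lay nearest to WT LPS 3 h (0.65). The Il27 response at LPS 1 h and averaged over times, and the p50KO minus WT means, are given with and without 1 or more of these arrays. Most other LPS tests are given with these arrays only, and the spread behind every BMDM test includes them. A difference between p50KO and WT at LPS 1 h or 3 h cannot be told apart from a difference in time.

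Ebi3 was the member with RNA above background in every macrophage culture, on 23 of 23 BMDM arrays. In p50KO BMDM its level was 7.82 unstimulated, 7.74, 8.2 and 9.32 after 1, 3 and 8 h of CpG, 9.25, 10.83 and 9.69 after LPS, and 6.95, 7.03 and 7.15 after IFNb. In WT BMDM its level was 9.35 and 9.22 on the unstimulated arrays, 9.46, 9.44 and 9.96 after 1, 3 and 8 h of CpG, 9.76, 11.41 and 12.44 after LPS, and 9.17, 9.1 and 9.13 after IFNb. The WT level was highest after 8 h of LPS, whereas the p50KO level was highest on the array labelled LPS 3 h.

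The Il27 chain, which completes IL-27, was near background in resting macrophages and was strongly present after LPS. In p50KO BMDM the Il27 level was 4.7 unstimulated, 4.43, 5.27 and 6.98 after 1, 3 and 8 h of CpG, 10.45, 11.25 and 10.52 after LPS, and 4.47, 5.91 and 4.55 after IFNb. In WT BMDM it was 4.29 and 4.41 unstimulated, 4.43, 4.45 and 4.68 after CpG, 5.06, 11.04 and 10.55 after LPS, and 4.54, 5.85 and 4.38 after IFNb. Detection p-values put it above background on 6 of 10 p50KO and 4 of 11 WT arrays: after LPS at every time and after IFNb at 3 h in both genotypes, and after CpG at 3 and 8 h in p50KO cells alone.

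Il12a, which encodes a chain of IL-12, stayed close to background. In p50KO BMDM its level after 1, 3 and 8 h of LPS was 4.99, 5.31 and 5.09, and only the array labelled 3 h was above background. In WT BMDM the levels after LPS were 4.67, 5.91 and 6.21, above background at 3 and 8 h. On the other p50KO and WT arrays it lay between 4.44 and 4.88 and was above background on none.

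Il23a, which encodes a chain of IL-23, was also dim and was seen early after LPS. In p50KO BMDM its level after 1, 3 and 8 h of LPS was 5.43, 5.38 and 4.53, above background at the first and second of these times. In WT BMDM it was 5.95, 5.9 and 5.3, above background at all 3. One further array, p50KO after 1 h of IFNb, was above background, at 5.05. A second Il23a probe was above background on 0 of 23 arrays, with levels between 4.35 and 4.94, so the Il23a values rest on 1 probe and the 2 probes disagree.

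**Figure D1:**
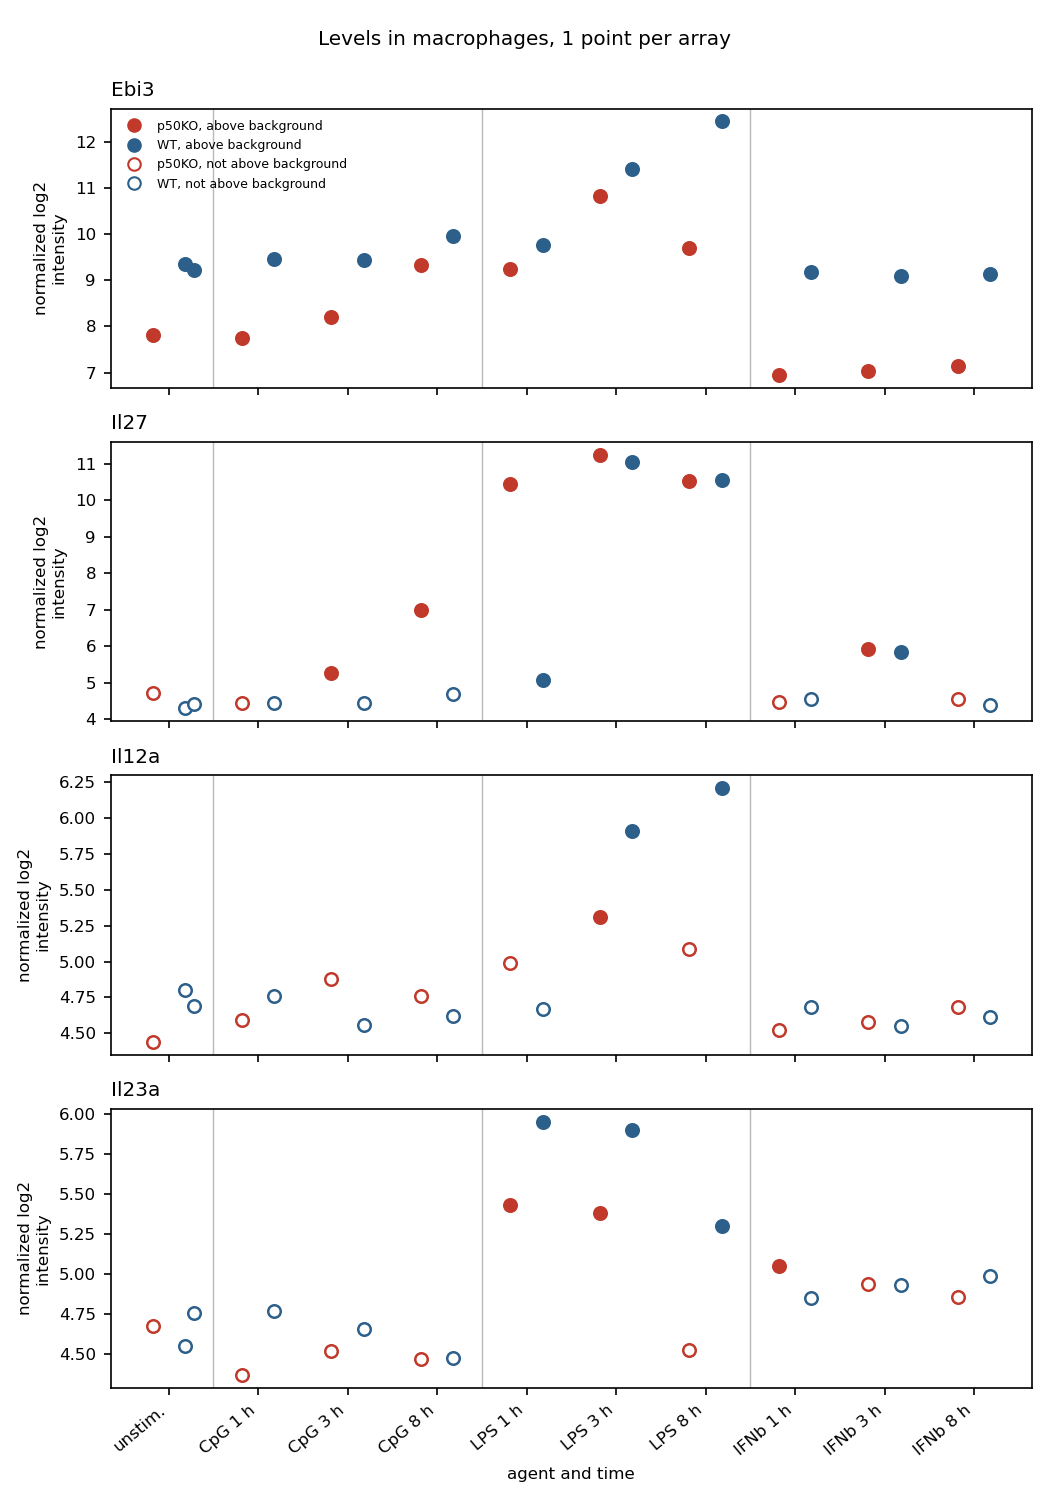
Level of each gene (log2 of normalized intensity, y axis) on each p50KO (red) and WT (blue) BMDM array by agent and time (x axis), with filled points above background and open points not. Ebi3 is filled throughout and lower in p50KO cells at each condition, and Il27 stands above 10 on 5 of the 6 LPS arrays, the WT 1 h array at 5.06 being the exception.

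LPS raised Ebi3 and Il27 in macrophages, while the calls of Il12a and Il23a rested on values near background. Averaged over 1, 3 and 8 h and over both genotypes, Ebi3 was 2.02 ± 0.32 log2 above unstimulated (SE; 6 LPS and 3 unstimulated arrays; limma adjusted p = 0.000228) and Il27 5.19 ± 0.69 (limma adjusted p = 7.5e-05). Because Il27 was above background on 0 of the 3 unstimulated arrays, its change is a bound of at least 24.5-fold higher after LPS. Il23a was 0.79 ± 0.16 higher (limma adjusted p = 0.00123) and Il12a 0.74 ± 0.2 higher (limma adjusted p = 0.00731), or 1.16-fold and 1.12-fold over the background level. Such values replace the fitted fold for the 3 genes not above background in unstimulated cells: the brighter group's mean is set against the lowest signal above background on each dim array. That mean keeps arrays not above background. With 5 of 6 LPS arrays above background for Il23a and 3 of 6 for Il12a, their values are not strict bounds. The 4 of 4 called higher stand against a background of 19.6% of the 9161 genes called higher and 29.4% called lower at an adjusted p under 0.05. Il12a and Il23a passed the filter on dim probes only through LPS arrays, so nothing is read from that share or from their p-values. LPS moved the median of all tested genes by -0.07. With levels under 5.37, the highest floor of any BMDM array, raised to it, an alternative chosen after seeing the data, the Ebi3 and Il27 calls held (limma adjusted p = 0.00104 and 0.000906). Il12a and Il23a then differed by 0.25 and 0.21 (limma adjusted p = 0.159 and 0.116), so their calls rested on values near background.

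At single times of LPS, different members passed the threshold. Ebi3 differed by 0.96 at 1 h (95% interval 0.09 to 1.84; limma adjusted p = 0.131), and was higher by 2.58 ± 0.41 at 3 h and 2.52 ± 0.41 at 8 h (limma adjusted p = 0.000448 and 0.000243). The other 3 genes were above background on none of the unstimulated arrays, so their fitted differences are given with bounds. Il27 passed at 1 h (3.14 ± 0.89, at least 5.87-fold; limma adjusted p = 0.0382), at 3 h (6.53 ± 0.89, at least 61.6-fold; limma adjusted p = 0.00019) and at 8 h (5.92 ± 0.89, at least 40.4-fold; limma adjusted p = 0.000144). Il12a passed at 3 h (0.99 ± 0.26, at least 1.33-fold, limma adjusted p = 0.00758) and at 8 h (1.03 ± 0.26, 1.37-fold over the background level, limma adjusted p = 0.00445). At 8 h 1 of 2 LPS arrays was above background for Il12a, so the 1.37-fold is not a strict bound. At 1 h no LPS array was above background for it. Il23a passed at 1 h (1.06 ± 0.2, at least 1.4-fold; limma adjusted p = 0.00567) and at 3 h (1.01 ± 0.2, at least 1.36-fold; limma adjusted p = 0.0018), and at 8 h it differed by 0.29 (95% interval -0.15 to 0.72), with 1 of 2 LPS arrays above background. With levels raised to the common floor, the Ebi3 and Il27 calls at 3 and 8 h held and the other calls at single times did not. The background of genes called higher was 3.66% at 1 h, 17.4% at 3 h and 19.6% at 8 h, and that of genes called lower 7.07%, 26% and 27.8%. The 1 h value of Il27 rested on the p50KO array labelled LPS 1 h: without it the difference was 0.73 ± 0.5 (limma adjusted p = 0.511), while the mean over times was 4.45 ± 0.32 (limma adjusted p = 2.95e-07). Differences between times, and between members in their timing, were not tested, and several of the intervals overlap.

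These calls rested on unstimulated arrays of both titles. With the arrays titled CpG left out, which leaves 1 unstimulated array, the mean LPS differences were 2.18 for Ebi3, 4.93 for Il27, 0.79 for Il12a and 0.79 for Il23a, with limma adjusted p of 0.119, 0.119, 0.255 and 0.179. On WT arrays alone they were 1.92 for Ebi3, 4.53 for Il27 and 0.85 for Il12a (limma adjusted p = 0.081, 0.0839 and 0.147), and the Il23a call held. The WT fit had no term for time, so changes between the times of an agent counted as spread. A call lost there does not show that WT cells lacked the response.

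CpG DNA and IFNb raised none of the 4 genes at the adjusted threshold. For CpG averaged over times, the differences from unstimulated were 0.48 for Ebi3 (95% interval -0.2 to 1.16), 0.42 for Il27 (-1.06 to 1.9), 0.07 for Il12a (-0.35 to 0.5) and -0.08 for Il23a (-0.42 to 0.26). The limma fit called 0 of 4 at an adjusted p under 0.05 and 0 of 4 at an unadjusted p under 0.05, against a background of 0.131% of genes called higher and 0% called lower. At 8 h alone, Ebi3 was 1.09 ± 0.41 above unstimulated with an unadjusted p of 0.0179 and a limma adjusted p of 0.699. For IFNb the differences were -0.45 for Ebi3 (interval -1.14 to 0.23), 0.33 for Il27 (-1.14 to 1.81), -0.02 for Il12a (-0.44 to 0.41) and 0.31 for Il23a (-0.03 to 0.65). Again 0 of 4 passed, also unadjusted, against a background of 0.0764% higher and 0.0982% lower. Leaving out single arrays moved the number of genes called for IFNb between 0 and 2363, while the lowest adjusted p of any member was 0.161. At single times 0 of 4 passed for either agent. The background of genes called higher was 0%, 0.131% and 0.415% at 1, 3 and 8 h of CpG and 0%, 0.546% and 0.0546% at these times of IFNb, and that of genes called lower was 0% at each time of CpG and 0%, 0.24% and 0.0437% for IFNb. At 3 h of IFNb, Il27 was above background in both genotypes, at 5.91 in p50KO and 5.85 in WT cells, which is at least 1.6-fold over the unstimulated arrays (limma adjusted p = 0.409).

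**Figure D2:**
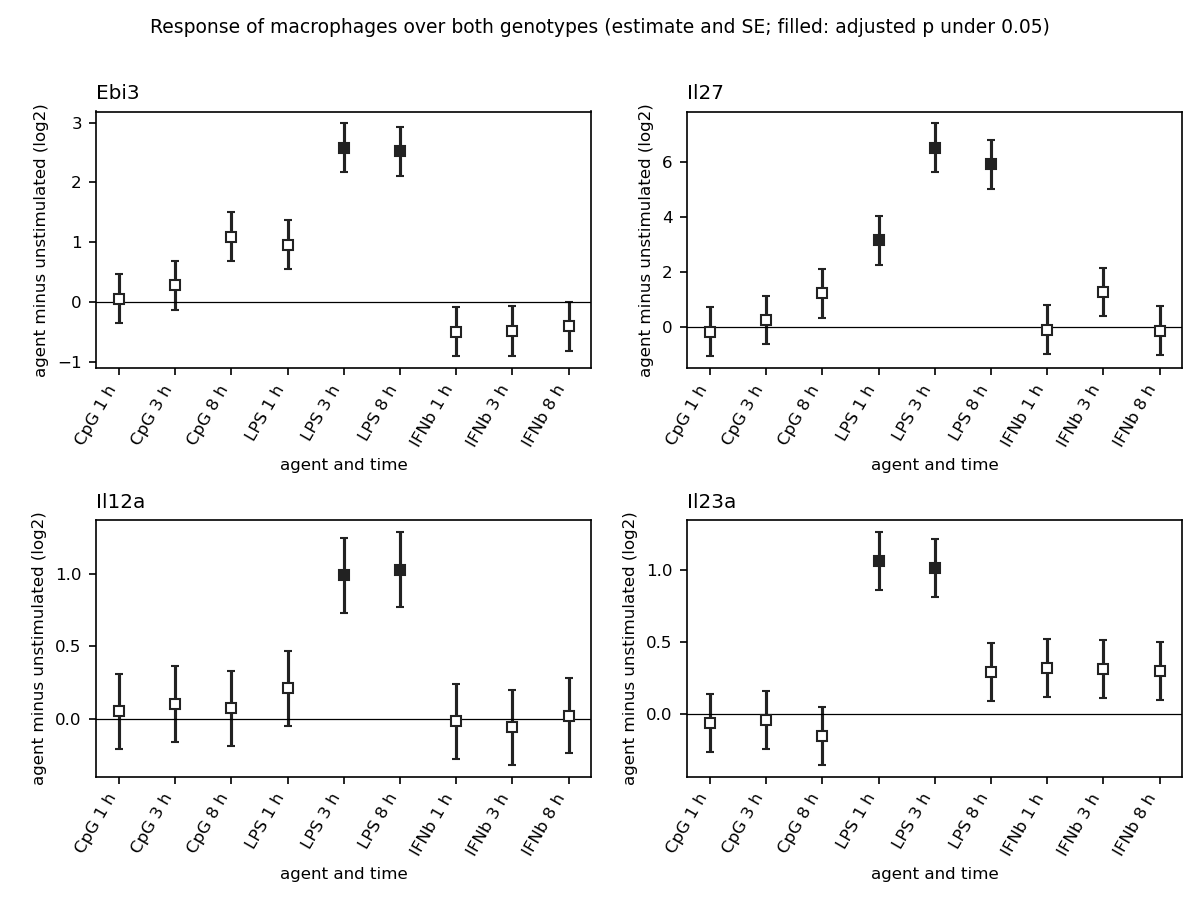
Difference from unstimulated BMDM (log2, y axis) for each agent and time (x axis), estimated over p50KO and WT arrays, with the SE as bars and filled squares where the limma adjusted p is under 0.05. Filled squares appear under LPS alone, at 1, 3 and 8 h for Il27, 3 and 8 h for Ebi3 and Il12a, and 1 and 3 h for Il23a.

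The response to LPS was larger than that to IFNb, in a test of the difference itself, for Ebi3 and Il27 in the fit over both genotypes. For Il12a and Il23a the fit also gave calls, which rested on values near background. LPS minus IFNb, averaged over times, was 2.48 ± 0.26 for Ebi3 (limma adjusted p = 8.15e-06), 4.86 ± 0.56 for Il27 (1.95e-05), 0.76 ± 0.16 for Il12a (0.00185) and 0.48 ± 0.13 for Il23a (0.0083). All 4 were higher after LPS, against 16.2% of genes called higher and 25.8% called lower. Nothing is read from such shares or from these p-values for Il12a and Il23a, which passed the filter only through LPS arrays. Neither agent's arrays are among those titled CpG, and a fit on the LPS and IFNb arrays without the CpG arrays gave limma adjusted p of 0.00116, 0.00196, 0.0156 and 0.0369. On WT arrays alone no call remained, with limma adjusted p of 0.103 for Ebi3, 0.177 for Il27, 0.184 for Il12a and 0.0761 for Il23a. That fit had no term for time, so changes between the times of an agent counted as spread. The Il23a call was also lost with median scaling (limma adjusted p = 0.0642) and with the authors' normalized values (0.175). With levels raised to the common floor the Ebi3 and Il27 calls held (limma adjusted p = 0.000108 and 0.000285) and those of Il12a and Il23a were lost (0.125 and 0.085). LPS minus CpG was 1.55 ± 0.26 for Ebi3, 4.77 ± 0.56 for Il27, 0.67 ± 0.16 for Il12a and 0.87 ± 0.13 for Il23a (limma adjusted p = 0.000171, 1.16e-05, 0.00258 and 6.39e-05), against 27.2% of genes called higher and 34.5% called lower. CpG minus IFNb was 0.93 ± 0.26 for Ebi3 (limma adjusted p = 0.0116), and for Il27 and Il12a it was 0.09 each, with 95% intervals of -1.11 to 1.29 and -0.25 to 0.44. For Il23a the fit gave -0.39 ± 0.13 (limma adjusted p = 0.0255), but the gene was above background on 0 of 6 CpG and 1 of 6 IFNb arrays, so this orders values near background, and the call was lost with levels raised to the common floor (limma adjusted p = 1). Here the background was 21% higher and 19.4% lower. With the array set (arrays titled CpG against the others) as a block no call against CpG remained (limma adjusted p of 0.16 to 1), so these differences cannot be told apart from a difference between array sets.

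Loss of p50 went with less Ebi3 RNA at every condition. The p50KO minus WT difference in BMDM was -1.47 unstimulated, -1.73, -1.23 and -0.64 after 1, 3 and 8 h of CpG, -0.51, -0.59 and -2.75 after LPS, and -2.22, -2.07 and -1.98 after IFNb. The mean over 10 conditions was -1.52 (SD 0.77). The difference was smallest at LPS 1 h and largest at LPS 8 h, where WT Ebi3 reached its highest level. Over all tested genes, 1.64% were lower in p50KO cells at 10 of 10 conditions and 0.906% were higher at all 10. The choice of members used this contrast, so nothing is read from that share. The mean was -1.28 (SD 0.47) within the CpG arrays, -1.68 (SD 0.92) within the LPS and IFNb arrays, and -1.76 (SD 0.65) without the p50KO arrays labelled LPS 1 h and 3 h.

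Il27 differed at few conditions, and 1 array carried most of the mean. After LPS 1 h the p50KO minus WT difference was 5.39, from the p50KO array that lay nearest to WT LPS 3 h. After CpG 8 h the level was 6.98 in p50KO cells and 4.68 in WT cells, the WT value not above background, which is at least 3.51-fold higher in p50KO cells. After CpG 3 h Il27 was above background in p50KO cells alone, with no fold given since the p50KO level of 5.27 lies under the WT array's lowest signal above background, 5.37. At LPS 3 h and 8 h and at IFNb 3 h, the genotypes lay within 0.22 log2 of each other. The mean over 10 conditions was 0.92 (SD 1.72), and it was 0.42 (SD 0.75) without the p50KO array labelled LPS 1 h. The SD exceeded the mean in both.

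For Il12a both genotypes were above background at LPS 3 h alone, where the p50KO minus WT difference was -0.59. At LPS 8 h the WT array alone was above background, and the level was at least 2.14-fold lower in p50KO cells. At LPS 1 h neither genotype was above background, and no difference is read there. For Il23a both were above background at 1 and 3 h of LPS, with differences of -0.52 at each time. At LPS 8 h the WT array alone was, and the level was at least 1.14-fold lower in p50KO cells. Over all 10 conditions the means were -0.15 (SD 0.44) for Il12a and -0.23 (SD 0.31) for Il23a, and without the LPS conditions they were -0.01 (SD 0.21) and -0.06 (SD 0.19). Il12a lies on chromosome 3, as does the gene that encodes p50, so a linked difference between the lines cannot be told apart from loss of p50. The summed intensity-scale level of 8 dendritic cell markers was 1110 to 5390 on p50KO arrays and 1090 to 3080 on WT arrays, and its part in these differences was not tested.

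**Figure D3:**
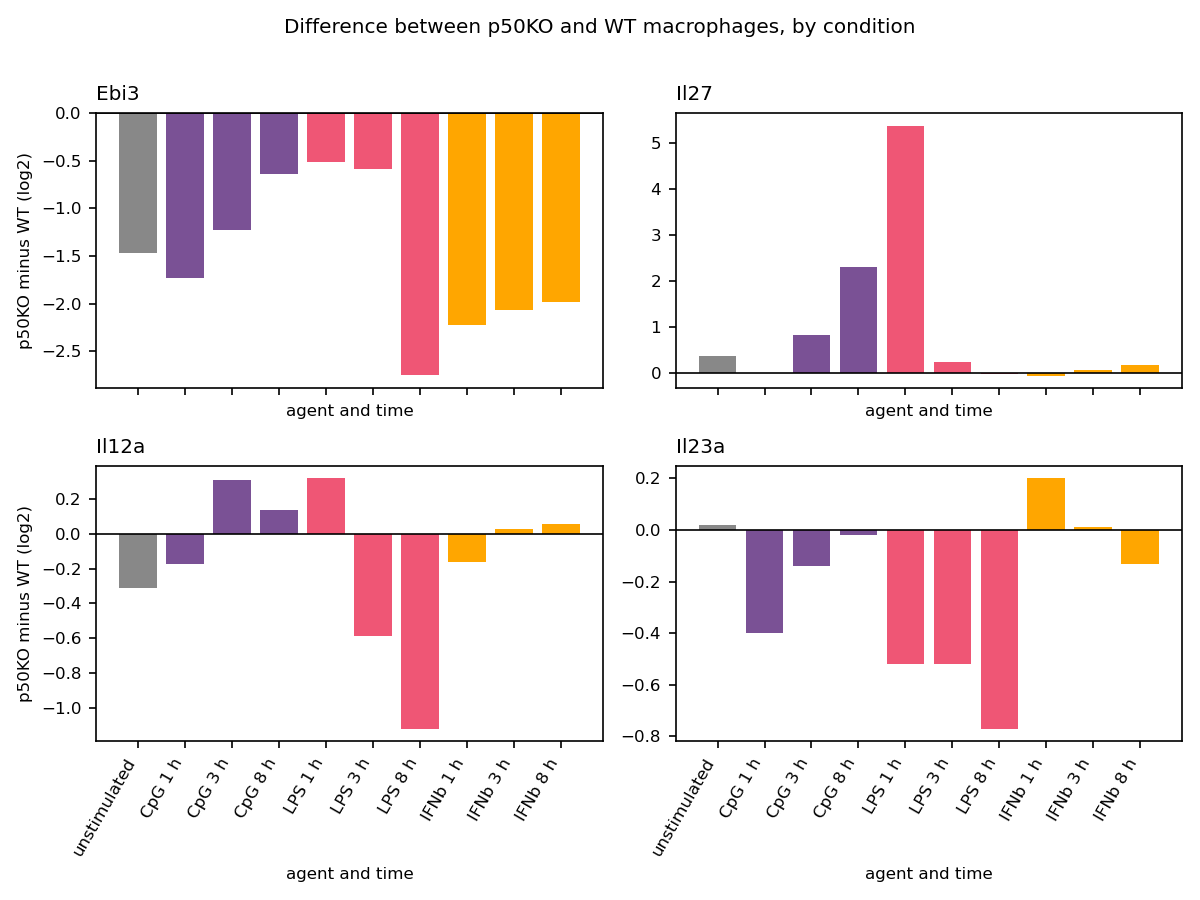
Difference in level between p50KO and WT BMDM (log2, y axis) for each agent and time (x axis), 1 array of each genotype per bar except that the unstimulated bar uses the mean of 2 WT arrays; y axes differ between panels. Ebi3 is below 0 in all 10 bars, from -2.75 to -0.51, and the Il27 panel is set by LPS 1 h at 5.39 and CpG 8 h at 2.3.

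Type I interferon signals through the receptor that IFNARKO cells lack, and macrophages make type I interferon after LPS. Il27 was 4.43 unstimulated and 9.4 after 3 h of LPS in IFNARKO BMDM, against 4.41 and 11.04 in WT BMDM. The induction was 4.97 log2 in IFNARKO cells and 6.63 log2 in WT cells, a difference of -1.66. As bounds, LPS gave at least 22.8-fold more in IFNARKO cells and at least 65.8-fold more in WT cells. Ebi3 was 8.21 and 10.76 in IFNARKO cells, against 9.22 and 11.41 in WT cells, so it was 1.02 log2 lower in unstimulated IFNARKO cells and its induction was 2.55 log2 in IFNARKO and 2.19 log2 in WT cells. Il12a after LPS was 6.44 in IFNARKO cells and 5.91 in WT cells, at least 2.94-fold and at least 1.88-fold over unstimulated levels not above background. Il23a after LPS was 5.74 in IFNARKO cells and 5.9 in WT cells, at least 1.8-fold and at least 1.87-fold over unstimulated. Of all tested genes 6.7% were induced at least 2-fold in WT cells, taking levels as measured. By that measure every member was past 2-fold, Ebi3 at 4.56-fold, Il12a at 1.21 log2 and Il23a at 1.13 log2. As bounds, Il12a and Il23a lie under 2-fold. Among these 614 genes, 28.5% had an induction at least 2-fold lower in IFNARKO cells and 3.75% one at least 2-fold higher, and the median difference of inductions over all genes was 0.05. With 1 array per group there was no replicate check and no test.

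**Figure D4:**
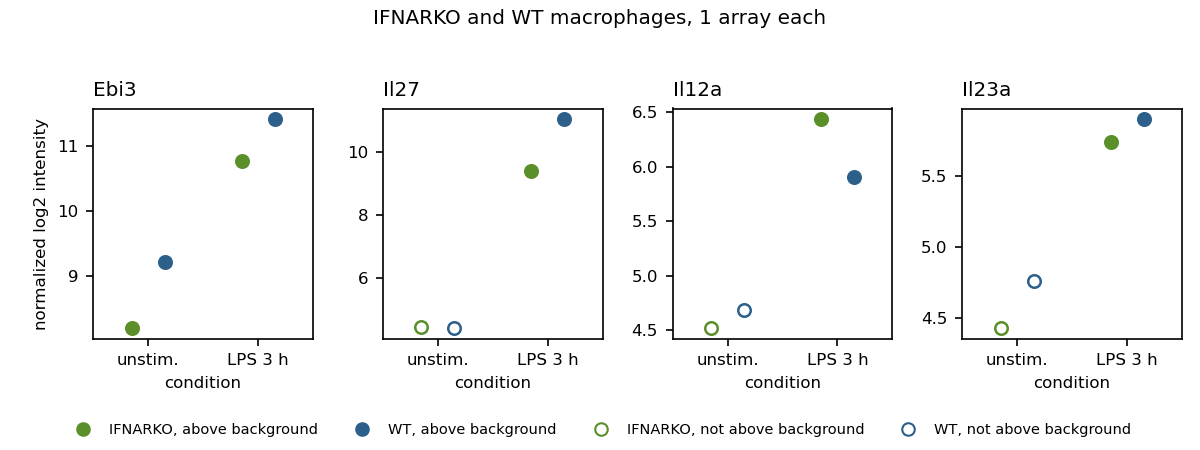
Level of each gene (log2 of normalized intensity, y axis) in unstimulated and LPS-treated (3 h) IFNARKO (green) and WT (blue) BMDM (x axis), 1 array per point, filled where above background. After LPS Il27 stands at 9.4 in IFNARKO and 11.04 in WT cells, and Il12a at 6.44 and 5.91.

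Fibroblast cultures held RNA of the 2 chains of IL-27 after LPS, and Il12a and Il23a were above background on 0 of 10 MEF arrays. In p50KO MEF the Ebi3 level was 4.61 unstimulated and 4.71, 5.06 and 7.17 after 1, 3 and 8 h of LPS, above background at 8 h. In WT MEF it was 5.13 and 5.26 unstimulated, 5.33, 7.09 and 8.4 after LPS, above background at 3 and 8 h, and 4.8 after 8 h of IFNb. The Il27 level was 4.64 unstimulated and 4.59, 5.32 and 6.62 after LPS in p50KO MEF. In WT MEF it was 4.44 and 4.57 unstimulated, 4.46, 6.49 and 7.77 after LPS, and 4.57 after IFNb. Il27 was above background at 3 and 8 h of LPS in both genotypes, and neither gene was above background after IFNb.

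The 8 h response to LPS carried these genes in MEF. At 8 h Ebi3 was 2.96 ± 0.33 above unstimulated (limma adjusted p = 0.00375; at least 4.72-fold) and Il27 2.72 ± 0.36 (limma adjusted p = 0.00679; at least 3.15-fold), against 6.46% of 9109 genes called higher and 5.59% called lower. Without the WT LPS 8 h array the adjusted p were 0.0642 and 0.0871. At 3 h the differences were 1.26 for Ebi3 (limma adjusted p = 0.103) and 1.43 for Il27 (0.0922), and at 1 h they were 0.2 (95% interval -0.6 to 1.01) and 0.05 (-0.83 to 0.93). Genes called higher made up 3.12% at 3 h and 0.176% at 1 h, and genes called lower 1.58% and 0%. Averaged over times, Ebi3 was 1.47 ± 0.26 higher (limma adjusted p = 0.0324) and Il27 1.4 ± 0.28 higher (limma adjusted p = 0.047), 2 of 2 against 3.45% of genes called higher and 1.34% called lower. Both genes passed the filter on dim probes through LPS arrays alone, so nothing is read from these shares, and the p-values are given as description. With single arrays left out, the limma adjusted p of the mean over times ranged over 0.0135 to 0.122 for Ebi3 and 0.0225 to 0.152 for Il27. With levels raised to 6.36, the highest floor of any MEF array, the means over times were 0.67 and 0.35 (limma adjusted p = 0.206 and 0.452), and at 8 h the Ebi3 call held at 1.49 ± 0.31 (limma adjusted p = 0.0361) while that of Il27 did not (0.112).

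Ebi3 was lower in p50KO than in WT fibroblasts after 3 and 8 h of LPS, in a contrast that the choice of members did not use. At 3 h the WT array alone was above background, and the level was at least 3.98-fold lower in p50KO cells. At 8 h, the time with both genotypes above background, it was 7.17 in p50KO and 8.4 in WT cells. At 0 and 1 h neither genotype was above background, so those levels carry no order. The fit over the 4 times, which uses them all the same, gave a p50KO minus WT difference of -1.08 ± 0.25 (limma adjusted p = 0.0122). With levels raised to the common floor it was -0.45 ± 0.23 (limma adjusted p = 0.16), so the call rested in part on values near background. For Il27 both genotypes were above background at 3 and 8 h of LPS. Its level was 2.25-fold and 2.22-fold lower in p50KO cells at these times, with 1 array of each genotype. The fit over the 4 times gave -0.47 for Il27, with a 95% interval of -1.12 to 0.18 (limma adjusted p = 0.181). The fit thus called 1 of 2 members lower, against a background of 28.9% of genes called lower and 25.6% called higher. Without the 8 h array of either genotype, the limma adjusted p of Ebi3 was 0.0521. p50KO MEF arrays had 11746 to 12399 probes above background, and WT MEF arrays of the LPS set had 8277 to 8970, so the array-wide difference moves with genotype.

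Macrophage markers were present in the fibroblast cultures. Adgre1, Cd14, Lyz2 and Mertk were above background on 10 of 10 MEF arrays, Fcgr1 on 1 and Itgam on 0, and all 8 fibroblast markers were above background. The summed level of the 6 macrophage markers with a probe was 3620 to 5440 on p50KO and 3810 to 12600 on WT MEF arrays. Lyz2, which encodes a lysozyme of macrophages and granulocytes, had an intensity of 2124.5 to 10261. Its values of 10042.5 and 10261 were on the WT arrays titled IFNb. Within the LPS set it was 2124.5 to 3402.2 on p50KO and 3023.9 to 4866.7 on WT arrays, so the WT range mixes array sets. Which cells held the RNA of these markers, and the part of any macrophages in the Ebi3 and Il27 values of MEF, was not tested.

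**Figure D5:**
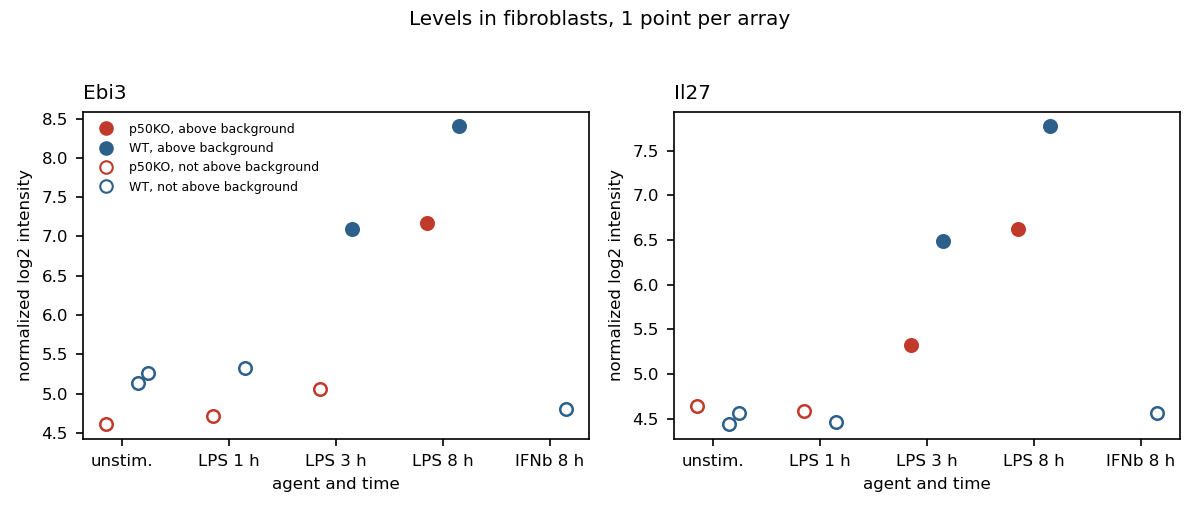
Level of Ebi3 and Il27 (log2 of normalized intensity, y axis) on each p50KO (red) and WT (blue) MEF array by agent and time (x axis), filled where above background. After 8 h of LPS Ebi3 stands at 7.17 in p50KO and 8.4 in WT cells and Il27 at 6.62 and 7.77.

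Among the receptor genes of these cytokines, LPS raised 1 of 3 tested in BMDM and lowered 0, against 19.6% of all tested genes called higher and 29.4% called lower. Il12rb1, the receptor chain shared by IL-12 and IL-23, was 0.94 ± 0.34 higher (limma adjusted p = 0.0315), and 0.8 ± 0.16 higher in MEF (limma adjusted p = 0.0457), where 3.45% of all genes were called higher. It was above background on 8 of 23 BMDM and 4 of 10 MEF arrays, so these differences include values near background. Il6st, the signalling chain of the IL-27 receptor, differed by -0.29 in BMDM (95% interval -0.67 to 0.1), and Il12rb2, the second IL-12 receptor chain, by -0.35 (interval -0.86 to 0.17). Il23r and Il27ra did not pass the filter on dim probes in either cell type. The median difference of the 3 tested receptors was -0.29.

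Of the kinases, STAT proteins and inhibitors through which these receptors signal, LPS raised 5 of 7 tested in BMDM and lowered 0, with a median difference of 1.36, against 19.6% of all tested genes called higher, 29.4% called lower and a median of -0.07. Socs3, an inhibitor of gp130 signalling, was 6.12 ± 0.38 higher (limma adjusted p = 7.16e-08). Jak2 was higher by 2.7 ± 0.38, Socs1 by 1.43 ± 0.36, Tyk2 by 1.36 ± 0.2 and Stat3 by 1.06 ± 0.16. Socs1 was above background on 6 of 23 BMDM arrays, so its difference includes values near background. Jak1 and Stat4 differed by -0.24 and 0.47 and did not pass. Averaged over times, CpG and IFNb raised 0 of these 7 and lowered 0. Of all tested genes, CpG raised 0.131% and lowered 0%, and IFNb raised 0.0764% and lowered 0.0982%. At 8 h of CpG alone Socs3 was higher by 2.5 ± 0.49 (limma adjusted p = 0.0394), against 0.415% of genes called higher. In MEF, LPS raised 3 of 6 and lowered 0, against 3.45% of all genes called higher and 1.34% called lower: Socs1 by 1.78 ± 0.33, Jak2 by 1.47 ± 0.17 and Socs3 by 1.46 ± 0.17.

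Of 15 transcription factors known to act on these cytokine genes, LPS raised 11 in BMDM and lowered 0, with a median difference of 1.14, against 19.6% of all tested genes called higher and 29.4% called lower. The NF-kB subunit genes Relb, Rel and Rela were higher by 3.16 ± 0.29, 2.11 ± 0.29 and 0.85 ± 0.14. The interferon regulatory factor genes Irf1, Irf7, Irf5, Irf8 and Irf9 were higher by 3.04, 2.66, 1.27, 0.61 and 0.52, and Irf3 differed by 0.14 (limma adjusted p = 0.535). Batf, Cebpb and Spi1 were higher by 1.66, 1.41 and 1.14, while Fos, Jun and Maf did not pass. Averaged over times, CpG raised 1 of the 15, Relb, by 1.62 ± 0.29 (limma adjusted p = 0.044), against 0.131% of all tested genes. IFNb raised 0 and lowered 0, against 0.0764% and 0.0982% of all tested genes. In MEF, LPS raised 6 of 13 and lowered 0, against 3.45% of all genes called higher and 1.34% called lower, among them Irf1 by 3.37 ± 0.21 and Relb by 2.06 ± 0.3. In the p50KO minus WT contrast of MEF, 4 of the 13 were lower and 3 higher, near the 28.9% of all genes called lower and 25.6% called higher. The lower ones were Cebpb by -1.35 ± 0.29, Relb by -1.09 ± 0.28, Irf1 by -0.77 ± 0.2 and Irf5 by -0.55 ± 0.17, and the higher ones Rela by 0.57 ± 0.11, Irf3 by 0.57 ± 0.16 and Fos by 0.42 ± 0.13. Of the cytokine genes that act downstream of IL-12, IL-23 and IL-27 in T cells, Ifng and Il17a did not pass the filter in BMDM, and Il10 was 2.81 ± 0.45 higher after LPS (limma adjusted p = 0.000259).

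The levels of the 4 genes over the 23 BMDM arrays had pairwise correlations of 0.5 to 0.78, highest between Il27 and Il12a and lowest between Ebi3 and Il23a. These arrays share agents, title sets and the high LPS arrays, so the correlations are descriptions. Among 7036 genes whose level spanned at least 1 log2, those most like Ebi3 were Tnip1 (r = 0.879), Pkn2 (0.877), Mapkbp1 (0.838), Cxcl16 (0.825) and Hipk2 (0.824). Those most like Il27 were Ext1 (r = 0.976), Pik3r6 (0.976), Rnf145 (0.969), Cd40 (0.964) and Jak2 (0.961). Those most like Il12a were Appl1 (r = 0.954), Gpr18 (0.941), Il17rd (0.939), Batf (0.934) and Il4i1 (0.927). Those most like Il23a were Nfkbib (r = 0.843), Pglyrp1 (0.842), Ciapin1 (0.824), Chil1 (0.818) and Nup54 (0.815).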

How the data were processed

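The authors deposited bead intensities on a linear scale without normalization, each followed by its detection p-value, per the file headers. BeadStudio was used, per the submitters' processing notes. A second deposited set of intensities was normalized by the authors, with the method not given in the sources used here. This set served as an alternative, and it ranked probes much as the unnormalized values did (rank correlation of at least 0.986 on each array). In BMDM 8 lines held no values, and 14 MEF probes had no normalized value. Probes were named by GEO's platform annotation with symbols brought up to date from a GRCm38.p6 gene table. A single symbol was given for 23978 BMDM and 20974 MEF probes, several for 0 and 1, and none for 1719 and 3638. Probes with several or none were not named. Neither targeted gene was checked: p50 was not analysed here, and the Ifnar1 probe did not pass the filter.

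Background was corrected with limma's normexp on detection p-values (offset 16), and arrays were quantile normalized to log2, separately for each cell type. Genes needed a detection p-value under 0.01 on at least 2 arrays, and the brightest probe stood for a gene. Two-sided limma tests (lmFit, eBayes; Benjamini-Hochberg over all genes; called at an adjusted p under 0.05) used condition and genotype terms on 21 BMDM arrays (10 residual degrees of freedom) and 9 MEF arrays (4). Errors are SEs from the fit, or SDs where stated. The number of arrays limits the precision. The members and gene lists were chosen with earlier results of these data known. Genes named beside the members are those of the lists and the 5 with the highest correlation with each member. The fit was tested on simulated data. Alternatives changed the offset, normalization, filter, probe rule, floor, array sets and arrays. Fits on WT arrays alone had a term for agent and none for time. limma 3.58.1 and statmod 1.5.0 ran in R 4.3.3; pandas 2.3.3, numpy 2.4.6 and matplotlib 3.10.9 ran in Python 3.11.15.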

Additional observations from a re-analysis of the deposited data

Results flagged for a closer look

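The responses of BMDM to the agents differed from each other in a test of the difference itself. LPS minus IFNb was 2.48 for Ebi3, 4.86 for Il27, 0.76 for Il12a and 0.48 for Il23a (log2, mean over 1, 3 and 8 h; limma adjusted p of 8.15e-06 to 0.0083). On WT arrays alone, in a fit without a term for time, none of the 4 calls remained (limma adjusted p of 0.0761 to 0.184). The Il12a and Il23a calls were also lost with levels raised to a common floor. LPS minus CpG was 1.55 for Ebi3, 4.77 for Il27, 0.67 for Il12a and 0.87 for Il23a (limma adjusted p of 1.16e-05 to 0.00258). CpG minus IFNb was 0.93 for Ebi3 (limma adjusted p = 0.0116) and -0.39 for Il23a (0.0255), whose values lay near background for both agents. CpG arrays form a set of their own, so differences against CpG cannot be told apart from a difference between array sets.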

How the results depend on the processing

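Of 437 alternatives to the 44 main results, 360 kept the direction and the side of the threshold, or the value. An offset of 50 gave 7 genes called for CpG, -0.17 for Il23a in CpG minus IFNb, 0.44 for the Il12a induction difference of IFNARKO, and 1 for Ebi3 and 0.86 for Il27 in the MEF LPS response. The authors' normalized values gave 0.26 for Il12a and 0.24 for Il23a after LPS, 1311 genes called for IFNb, 0.15 and -0.11 for Il23a in LPS minus IFNb and CpG minus IFNb, 0.16 for Il12a in LPS minus CpG, and -0.03 for Il23a at LPS 8 h, where the sign turned. Median scaling gave 2211 genes called for IFNb, 0.32 for Il23a in LPS minus IFNb and 0.45 for its IFNARKO difference. Without the filter, 4 genes were called for CpG, 10 for IFNb, and the MEF LPS differences of 1.47 and 1.4 had adjusted p of 0.0603 and 0.0855. The mean of detected probes gave 59 genes for IFNb. Without the p50KO array labelled LPS 1 h, 541 genes were called for IFNb, and without those labelled LPS 1 h and 3 h, 1399 for IFNb and 22 for CpG, while Il12a at LPS 1 h turned its sign, to -0.05 and -0.03.

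With the array set as a block, 1187 genes were called for LPS, 4 for CpG, 0 for IFNb (154 at an unadjusted p under 0.05), 1 for CpG minus IFNb and 60 for LPS minus CpG. The LPS differences were then 0.74 for Il12a and 0.76 for Il23a (adjusted p = 0.128 and 0.0584), CpG minus IFNb was 0.81 for Ebi3 and -0.35 for Il23a, and LPS minus CpG was 1.66, 4.4, 0.67 and 0.83 for Ebi3, Il27, Il12a and Il23a. WT arrays alone, fitted without a term for time, gave 291 genes for LPS, 0 for CpG (210 unadjusted), 0 for IFNb (623 unadjusted), 133 for LPS minus IFNb, 727 for CpG minus IFNb and 2914 for LPS minus CpG. LPS differences were then 1.92, 4.53 and 0.85 for Ebi3, Il27 and Il12a, LPS minus IFNb 2.07, 3.96, 0.98 and 0.79 for the 4 genes, and CpG minus IFNb 0.49 for Ebi3 and -0.29 for Il23a, with signs turned at -0.4 for Il27 and at -0.1 for Il12a under CpG. No LPS minus IFNb call of a member remained on WT arrays alone. The CpG arrays alone called 42 genes. The LPS and IFNb arrays alone called 101 for LPS and 0 for IFNb (77 unadjusted), with LPS differences of 2.18, 4.93, 0.79 and 0.79 and an IFNb difference of 0.03 for Il12a, its sign turned. In MEF, WT arrays alone, also fitted without a term for time, called 0 genes (340 unadjusted), with 1.75 for Ebi3 and 1.73 for Il27. The causes were not tested. In the BMDM p50 contrast, the settings without LPS conditions and within each array set were chosen after seeing the data.

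With levels raised to the highest floor of any array (5.37 in BMDM, 6.36 in MEF; chosen after seeing the data), Il12a and Il23a gave 0.25 and 0.21 for LPS, 0.23 and 0.2 for LPS minus IFNb and 0.23 and 0.2 for LPS minus CpG. Il23a gave 0 for CpG minus IFNb and -0.16 for its IFNARKO difference, and signs turned at 0.02 for Il23a under CpG and at 0.02 for Il12a under IFNb. In MEF, LPS gave 0.67 for Ebi3 and 0.35 for Il27, and p50 -0.45 for Ebi3. By construction this setting removes differences among values near background.

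Leaving out each array in turn, genes called ranged over 2742 to 4879 for LPS, 4 to 18 for CpG and 0 to 2363 for IFNb in BMDM, and in MEF over 104 to 1839 for LPS and 3094 to 6783 for p50. LPS differences ranged over 0.55 to 0.9 for Il12a, whose adjusted p was 0.0514 without the unstimulated p50KO array, and in MEF over 1.22 to 1.75 for Ebi3 and 1.22 to 1.73 for Il27. CpG differences ranged over -0.18 to 0.01 for Il23a, and IFNb differences over -0.08 to 0.03 for Il12a. CpG minus IFNb ranged over -0.47 to -0.31 for Il23a and -0.17 to 0.35 for Il27. The p50 difference in MEF ranged over -1.29 to -0.79 for Ebi3. At LPS 1 h Il12a ranged over -0.05 to 0.48, and at LPS 8 h Il23a over -0.03 to 0.58. No paired analysis was possible because the groups hold 1 array each and the labels give no replicate numbers that groups share. Signal near background limits Il12a and Il23a.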
